A study of Mus musculus with 10 samples.

Results

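NRF2, the transcription factor encoded by Nfe2l2, its inhibitor KEAP1 and 8 antioxidant genes that NRF2 is known to induce were examined in mouse tracheal organoids. These 10 genes (Nfe2l2, Keap1, Slc7a11, Gclc, Gclm, Gpx2, Txnrd1, Srxn1, Nqo1 and Hmox1) were taken by symbol from a deposited count table of 22457 genes. All 10 had a row and all 10 passed the filter on low counts, which left 13528 genes to test. The organoids are epithelial structures grown in Matrigel from tracheal basal cells, the stem cells of the airway lining. The control group is labelled Ctrl. The second group, M3-CKO, is described in the title of the series as a knockout of Mettl3, the catalytic subunit of the enzyme that writes N6-methyladenosine on messenger RNA. The sources used here do not give the Cre driver, the full genotype of either group, the ages of the mice or any pooling. Both groups were cultured in the same MTEC/Plus medium, which among other additives contained retinoic acid, cholera toxin, insulin and inhibitors of TGF-beta and BMP receptors, and were harvested on day 14. Each group had 3 RNA-seq libraries. The 4 libraries of m6A immunoprecipitation and input were not analysed here, so no methylation value is given.

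In resting cells KEAP1 holds NRF2 in the cytoplasm and hands it to a CUL3 ubiquitin ligase for breakdown. Oxidants and electrophiles modify KEAP1, after which NRF2 builds up, pairs with a small MAF protein and binds antioxidant response elements near its targets. Those targets import cystine, make glutathione, reduce thioredoxin and peroxiredoxins, detoxify quinones and break down haem, functions that airway epithelium uses against inhaled oxidants. NRF2 activity is set largely at the level of the protein, which RNA counts do not measure.

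Library totals ran from 8906375 to 10485922 counts, so that 10 CPM (CPM being the count scaled to the TMM-adjusted library size) rests on 87.6 to 103.6 counts. The level of Mettl3 itself was 16.9 ± 1.96 CPM (SD, n = 3) in the controls and 10.4 ± 0.632 in M3-CKO, with no overlap between the groups (log2 fold change -0.70, edgeR adjusted p = 0.12). DESeq2 called it lower (adjusted p = 0.049), as did edgeR without M3-CKO replicate 3 (adjusted p = 0.043). Such a count may include reads from undeleted parts of the gene. M3-CKO replicate 3 stood apart, with a Pearson r across genes of 0.908 and 0.919 with the other M3-CKO libraries against 0.985 between those. Its r with Ctrl replicates 1 to 3 was 0.9221, 0.9247 and 0.9195, so by this measure it was no closer to its mates than to Ctrl. In M3-CKO replicate 3, 22.3% of tested genes lay at least 2-fold away from the mean of replicates 1 and 2. Where leaving out this library adds a call of a named pathway gene, that call is given. Where it moves a log2 fold change by over 1.5 times, the value without it is given. For genes named after their values were seen, only the call is given. Of the 7 mesenchymal markers 4 had a row and summed to between 1.35 and 12.7 CPM, mostly from Pdgfra, which reached 11.8, while Col1a1 reached at most 0.228. Of the 8 immune markers 5 had a row. The pan-leukocyte gene Ptprc reached at most 0.211 CPM and Csf1r 3.19, whereas Cd68 stood between 37.6 and 93.3 CPM and Lyz2, which airway epithelium also makes, between 357 and 1342. The 9 basal cell markers summed to between 2987 and 3651 CPM in Ctrl, and to 1597, 1549 and 2499 in M3-CKO replicates 1 to 3. Aqp3 gave 1127 CPM of the sum in M3-CKO replicate 3, against 175 and 163 in replicates 1 and 2. Krt5 (152 CPM) and Krt15 (264) were below every Ctrl library in replicate 3 too (at least 308 and 947). Itga6 went the other way in M3-CKO replicates 1 and 2 (657 and 704 CPM, against 368 to 429 in Ctrl), and Pdpn overlapped between the groups. The 8 club cell markers summed to between 6623 and 7055 CPM in Ctrl, and to 3823, 3213 and 9077 in M3-CKO replicates 1 to 3. Most of that sum came from Reg3g and Cyp2f2. Scgb1a1, the defining club cell gene, went the other way, from between 2.81 and 5.57 CPM in Ctrl to 83.2, 37.5 and 359 in M3-CKO, and was the only club marker called (higher). The hillock and squamous markers summed to between 622 and 743 CPM in Ctrl and between 180.2 and 294 in M3-CKO. The goblet markers summed to between 83.3 and 127 in Ctrl and between 344 and 991 in M3-CKO. Most of the goblet sum came from Gp2, at 52.7, 81.5 and 88.2 CPM in Ctrl and 970, 490 and 269 in M3-CKO. Agr2 had between 20.6 and 35.4 CPM in Ctrl and 9.56, 10.2 and 61.4 in M3-CKO. Muc5ac stayed between 1.42 and 5.95 CPM over all libraries. The 8 ciliated cell markers summed to between 17.5 and 55.6 CPM in Ctrl and to 98.5, 71.1 and 50.8 in M3-CKO replicates 1 to 3. Foxj1 gave 73.2, 58.7 and 28.8 CPM of these M3-CKO sums. Of the other markers edgeR called 3 of 9 basal and 2 of 6 hillock and squamous lower. It called 1 of 6 goblet markers higher and 0 of 8 ciliated (2.91% of all tested genes called). In bulk libraries, fewer cells of a type and less RNA per cell cannot be told apart.

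The 8 target genes had no common direction: 4 had a positive and 4 a negative log2 fold change in M3-CKO against Ctrl. Slc7a11 and Gpx2 were higher in every M3-CKO library than in every Ctrl library, with fold changes of 3.52 and 2.84. Gclc and Hmox1 were lower in every M3-CKO library, by factors of 1.44 and 1.75. Gclm, Txnrd1, Srxn1 and Nqo1 overlapped between the groups. None of the 10 genes passed the edgeR test over all genes, which called 2.91% of tested genes (1.74% higher and 1.16% lower in M3-CKO) at an adjusted p under 0.05, although 5 of the 10 had an unadjusted p under 0.05 (20.5% of tested genes) and 6 of the 10 did not overlap between the groups (27.1% of tested genes). DESeq2 called 3 of the 10 (10.4% of tested genes), namely Slc7a11 and Gpx2 higher and Gclc lower, and limma-voom called 0 (2.23% of tested genes). The same 3 genes were called in the same directions by edgeR without M3-CKO replicate 3, where 25.0% of tested genes were called. With no low-count filter (3.30% of genes called) and with library size alone as the scaling (3.10%), edgeR called Slc7a11 and no other of the 10. The median log2 fold change was 0.15 over the 10 genes and 0.02 over all tested genes.

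**Figure D1:**
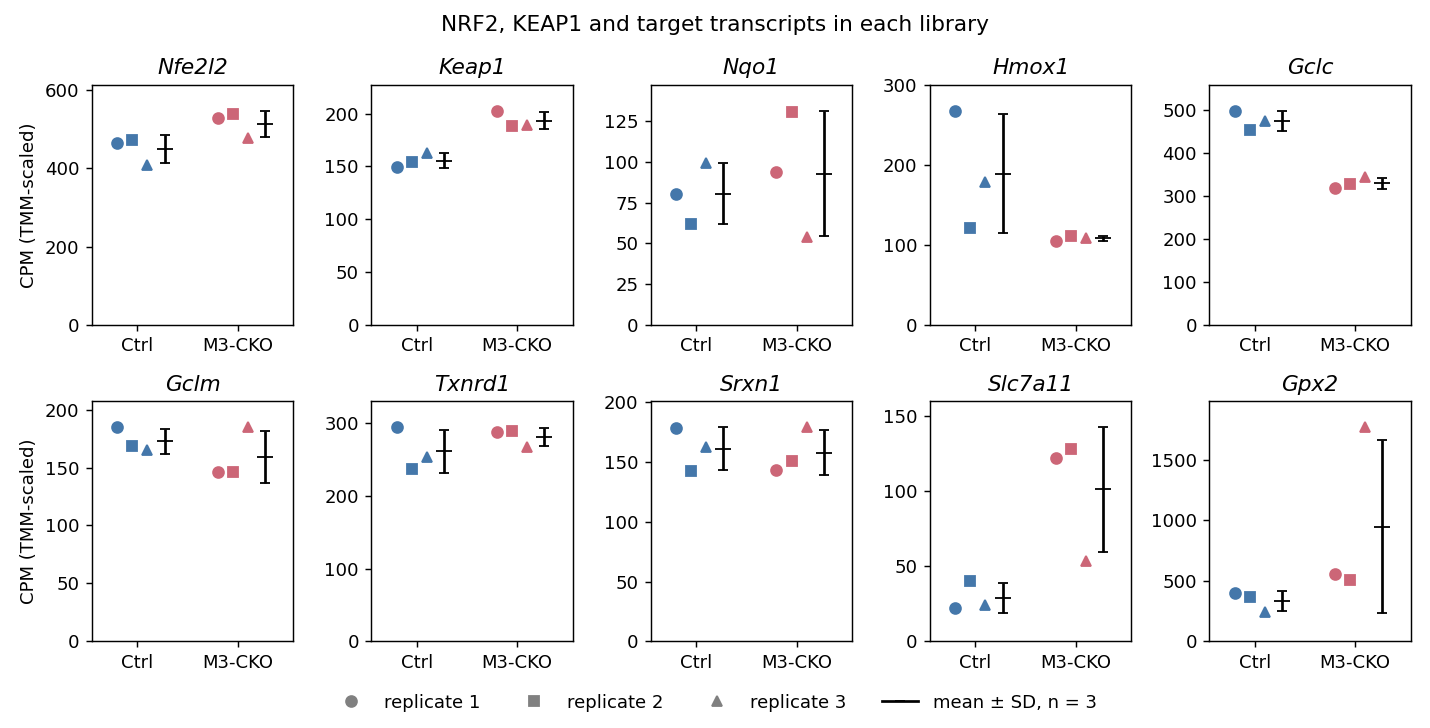
Level of each transcript in CPM (vertical axes, each starting at 0) in the 3 Ctrl and 3 M3-CKO libraries, with symbols for replicates 1 to 3 and the mean ± SD in black. Slc7a11 and Gpx2 lie higher and Gclc lower in all M3-CKO libraries, and M3-CKO replicate 3 sits apart from replicates 1 and 2 for Slc7a11, Gpx2 and Nqo1.

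The core of the antioxidant response element, spelled TGACNNNGC, was searched on both strands of the 300 bases around each start (250 before, 50 after) in the RefSeq promoter table of build GRCm38.p6. The table matched 8 of the 10 genes, all but Hmox1 and Gclc, and 4 of these 8 had a match, against 14.0% of the 27025 genes in the table. The 4 stretches are shown because the element is the known contact of NRF2 with its targets, and the capitals mark the match.
Gclm: gctcccgggcGCACCGTCAactctcacgag
Txnrd1: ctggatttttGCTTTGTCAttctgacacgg
Srxn1: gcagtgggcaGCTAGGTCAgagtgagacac
Nfe2l2: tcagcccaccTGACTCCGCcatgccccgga
The stretch of Gclm lies at chr3:122245413-122245442 (plus strand), that of Txnrd1 at chr10:82859104-82859133 (plus), that of Srxn1 at chr2:152105542-152105571 (plus) and that of Nfe2l2 at chr2:75704884-75704913 (minus). Counted from the start, the matches begin at base -134 in Gclm, -92 in Txnrd1 and -240 in Nfe2l2, all before it, and at base 29 after it in Srxn1. Those of Gclm, Txnrd1 and Srxn1 read on the opposite strand. The windows of Keap1, Nqo1, Slc7a11 and Gpx2 hold no such letters, nor do those at the other listed starts of Txnrd1. Counted by window, 4 of 10 held a match, against 12.4% of all windows. Elements spelled otherwise or farther from a start were not searched. The match is a description of the letters only, and whether NRF2 binds at these matches was not tested.

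Transcripts of the regulator and its inhibitor both had slightly higher values in M3-CKO. Nfe2l2 had 465, 473 and 408 CPM in the Ctrl libraries and 528, 539 and 477 CPM in the M3-CKO libraries, each in the order of replicates 1 to 3, as below. The groups did not overlap, but the lowest M3-CKO library lay only just above the highest Ctrl library. The log2 fold change was 0.20 (SE 0.15, edgeR adjusted p = 0.51), with a 95% interval of 0.902-fold to 1.46-fold. Keap1, which encodes the adaptor that targets NRF2 for breakdown, had 149.7, 154 and 163 CPM in Ctrl and 203, 188 and 189 in M3-CKO. Every M3-CKO library was above every Ctrl library and the spread within each group was small, 156 ± 6.76 against 193 ± 8.25 CPM (SD, n = 3). Its log2 fold change of 0.31 (SE 0.13) gave an unadjusted p of 0.046 and an edgeR adjusted p of 0.23. On the log2 scale, M3-CKO replicate 3 differed from the mean of replicates 1 and 2 by -0.16 for Nfe2l2 and by -0.04 for Keap1.

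Slc7a11 showed the largest difference among the 10 genes. It encodes xCT, the cystine and glutamate exchanger that brings in cystine, the limiting precursor of glutathione. The Ctrl libraries had 21.9, 40.0 and 24.5 CPM and the M3-CKO libraries 122.0, 128 and 53.6 CPM, from raw counts of 201, 378 and 218 against 1263, 1126 and 527. M3-CKO replicates 1 and 2 were high together, and replicate 3 lay between them and the highest Ctrl library. The log2 fold change was 1.81 (SE 0.38), with a 95% interval of 1.92-fold to 6.44-fold, and the edgeR adjusted p of 0.0503 lay just outside the threshold. Over the other ways of fitting, the log2 fold change stayed between 1.62 and 2.12 and the adjusted p ranged from 0.000179 with DESeq2 to 0.21 without Ctrl replicate 3. It was 2.11 (edgeR adjusted p = 0.000961) when M3-CKO replicate 3 was left out, and with no low-count filter the adjusted p was 0.0080.

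The start window of Slc7a11 is shown whole because this gene carries the largest difference. Capitals mark TGATGCAAA, the letters of a composite C/EBP-ATF element, on either strand. This motif was chosen after the window had been read, so its presence there is no finding and supports nothing.
Slc7a11: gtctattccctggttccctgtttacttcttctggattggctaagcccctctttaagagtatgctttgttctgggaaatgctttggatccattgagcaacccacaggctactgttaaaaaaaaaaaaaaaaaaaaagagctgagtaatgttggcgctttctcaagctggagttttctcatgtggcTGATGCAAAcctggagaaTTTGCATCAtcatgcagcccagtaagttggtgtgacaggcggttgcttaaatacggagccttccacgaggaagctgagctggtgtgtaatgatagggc
The window lies at chr3:50443564-50443863 on the minus strand of GRCm38.p6. The matches begin at base -66 on the strand of the gene and at base -48 on the opposite strand. For reference, 0.315% of the 27025 genes in the table hold these letters in a window of the same length. The part of any factor in the Slc7a11 level was not tested. Slc3a2, the heavy chain that carries xCT to the membrane, had a log2 fold change of -0.21 (SE 0.23, edgeR adjusted p = 0.65). It was picked from the fixed list after its value was seen.

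The enzyme that starts glutathione synthesis, glutamate-cysteine ligase, is built from a catalytic subunit (Gclc) and a modifier subunit (Gclm). Gclc had 499, 452 and 475 CPM in Ctrl and 318, 327 and 343 CPM in M3-CKO. The groups were tight and far apart, at 475 ± 23.1 against 329 ± 12.9 CPM (SD, n = 3), and M3-CKO replicate 3 differed from its mates by only 0.09 on the log2 scale. The log2 fold change of -0.53 (SE 0.14, 95% interval -0.85 to -0.21) had an edgeR adjusted p of 0.087. The value stayed between -0.57 and -0.49 over the other ways of fitting, with an adjusted p of 0.0030 by DESeq2 and 0.010 by edgeR without M3-CKO replicate 3. Gclm had 185, 168 and 165 CPM in Ctrl and 146, 147 and 185 in M3-CKO. M3-CKO replicates 1 and 2 were below all Ctrl libraries, whereas replicate 3 was level with the highest of them. Its log2 fold change was -0.12 (SE 0.16, edgeR adjusted p = 0.72), with an interval of 0.717-fold to 1.18-fold. Without M3-CKO replicate 3 it was -0.245 (edgeR adjusted p = 0.15). Whether the 2 subunits differed from each other in their response was not tested.

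Gpx2 encodes a selenium-dependent glutathione peroxidase of epithelia that reduces hydrogen peroxide and lipid hydroperoxides. Its level was 395, 363 and 242 CPM in Ctrl and 559, 510.4 and 1772 CPM in M3-CKO. M3-CKO replicates 1 and 2 were moderately above the Ctrl libraries, and replicate 3 was above their mean by 1.73 on the log2 scale. The log2 fold change was 1.51 (SE 0.49, edgeR adjusted p = 0.14). Leaving out M3-CKO replicate 3 brought it to 0.68, with an adjusted p of 0.040. The same library had the highest club cell marker sum, 9077 CPM. That sum was between 6623 and 7055 CPM in Ctrl. It was lower, 3823 and 3213, in M3-CKO replicates 1 and 2, where Gpx2 was above every Ctrl library. The part of club cells in the Gpx2 level was not tested.

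Gpx2 had the widest range of the 10 genes over the 6 libraries, and the tested genes most like it were looked up among 9633 candidates with a mean of at least 10 CPM. The measure was the mean absolute difference of log2 CPM, centred per gene, over the 6 libraries. Pgp, which encodes phosphoglycolate phosphatase, was nearest at 0.137, followed by Ppp1r14d, a gene for a phosphatase 1 inhibitor, at 0.145 and Ninj1, which encodes a membrane protein that acts in plasma membrane rupture, at 0.187. Pgp had 97.4, 93.5 and 83.6 CPM in Ctrl against 142, 129 and 388 in M3-CKO. These 3 genes were picked for likeness to Gpx2 over the same 6 libraries, so their group differences follow from the choice and are no separate finding. With all libraries edgeR called 0 of them (2.91% of all tested genes), with adjusted p from 0.079 to 0.16 and unadjusted p from 0.0046 to 0.022. DESeq2 called Pgp and Ninj1 higher (10.4% of all tested genes called in either direction). Leaving out M3-CKO replicate 3, the log2 fold change of Pgp went from 1.26 to 0.56 (edgeR adjusted p = 0.012), that of Ninj1 from 1.59 to 0.98 (adjusted p = 0.010) and that of Ppp1r14d from 1.23 to 0.64 (adjusted p = 0.13).

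The genes for reduction of thioredoxin and peroxiredoxins overlapped between the groups. Txnrd1, the cytosolic thioredoxin reductase, had 294, 237 and 253 CPM in Ctrl and 288, 289 and 267 in M3-CKO. All M3-CKO libraries lay inside the Ctrl range, and the log2 fold change of 0.11 (SE 0.15, edgeR adjusted p = 0.74) had an interval of 0.847-fold to 1.37-fold. Srxn1 encodes sulfiredoxin, which repairs over-oxidised peroxiredoxins. Its values were 178, 143 and 163 CPM in Ctrl against 143, 151 and 179 in M3-CKO. Its log2 fold change was -0.03 (SE 0.16, edgeR adjusted p = 0.94), the interval ran from 0.757-fold to 1.27-fold, and its sign changed with the library left out. These intervals do not include a 2-fold change in either direction. The log2 fold change of Srxn1 was -0.14 (edgeR adjusted p = 0.47) without M3-CKO replicate 3.

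Nqo1, a quinone reductase and the customary readout of NRF2 activity, varied more within M3-CKO than between the groups. It had 80.0, 62.2 and 99.6 CPM in Ctrl and 94.0, 131.0 and 53.7 in M3-CKO, where replicate 2 was the highest and replicate 3 the lowest of all 6 libraries. The log2 fold change was 0.20 (SE 0.32, edgeR adjusted p = 0.78), with an interval from 0.683-fold to 1.94-fold. It was 0.48 without M3-CKO replicate 3 and -0.11 without replicate 2. Gpx2 and Nqo1 thus took opposite extremes in M3-CKO replicate 3, and Slc7a11, like Nqo1, was lower there than in replicates 1 and 2 (differences from their mean of -1.22 and -1.04 on the log2 scale).

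Hmox1 encodes haem oxygenase 1, which breaks haem into biliverdin, iron and carbon monoxide. Its values were 268, 121 and 179 CPM in Ctrl against 104, 112 and 108 in M3-CKO. The M3-CKO libraries were nearly equal at 108 ± 3.62 CPM (SD, n = 3), the Ctrl libraries were spread at 189 ± 74.4, and the lowest Ctrl library lay close to the highest M3-CKO library. Its log2 fold change of -0.81 (SE 0.27) had an edgeR adjusted p of 0.15 and an unadjusted p of 0.019. Without Ctrl replicate 1 it was -0.46 (adjusted p = 0.32). Macrophages also express Hmox1. The 5 immune markers with a row summed to 531, 888 and 1424 CPM in Ctrl replicates 1 to 3 and to 789, 452 and 512 in M3-CKO, mostly from Lyz2. Cd68, a macrophage marker, stood at 78.0, 53.1 and 81.1 CPM in Ctrl and 78.8, 93.3 and 37.6 in M3-CKO. The part of such cells in the Hmox1 level was not tested.

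**Figure D2:**
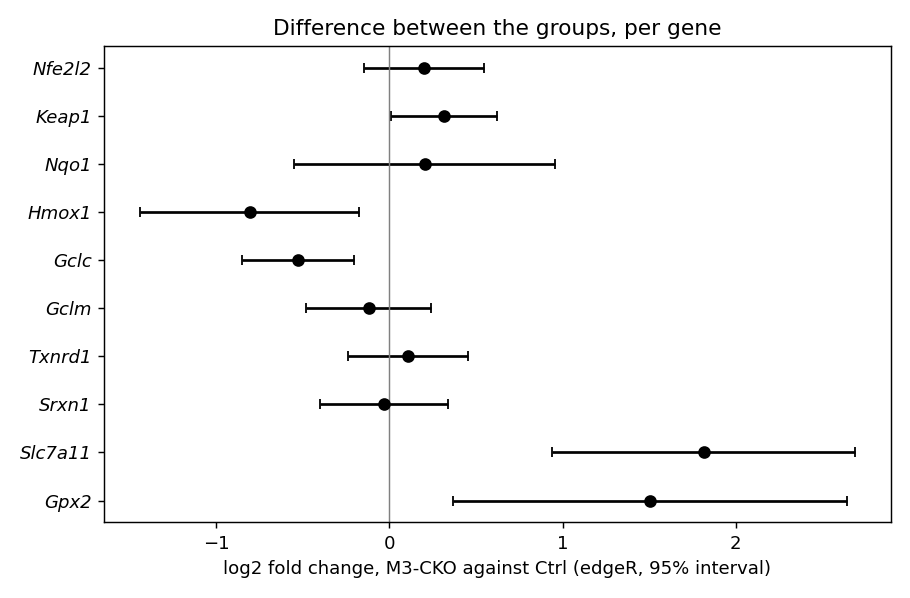
Log2 fold change of each gene in M3-CKO against Ctrl from the edgeR fit with its 95% interval (horizontal bars), 3 libraries per group. The intervals of Keap1, Slc7a11 and Gpx2 lie above 0, those of Hmox1 and Gclc lie below 0, and the other 5 include 0. The intervals are not adjusted for the number of genes tested.

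Leaving out single libraries moved the values of Gpx2, Nqo1 and Hmox1 the most, and those of Gclc and Keap1 little. The log2 fold change of Keap1 stayed between 0.28 and 0.35. Calls by edgeR appeared in only 1 of the 6 reduced sets, the one without M3-CKO replicate 3, and only for Slc7a11, Gpx2 and Gclc. In that set the M3-CKO group is 2 libraries with an r of 0.985, a closer pair than any in Ctrl (at most 0.977). No label tells if replicates were separate animals or cultures, and the p-values therefore reflect only the spread among these 6 libraries, which may be technical.

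**Figure D3:**
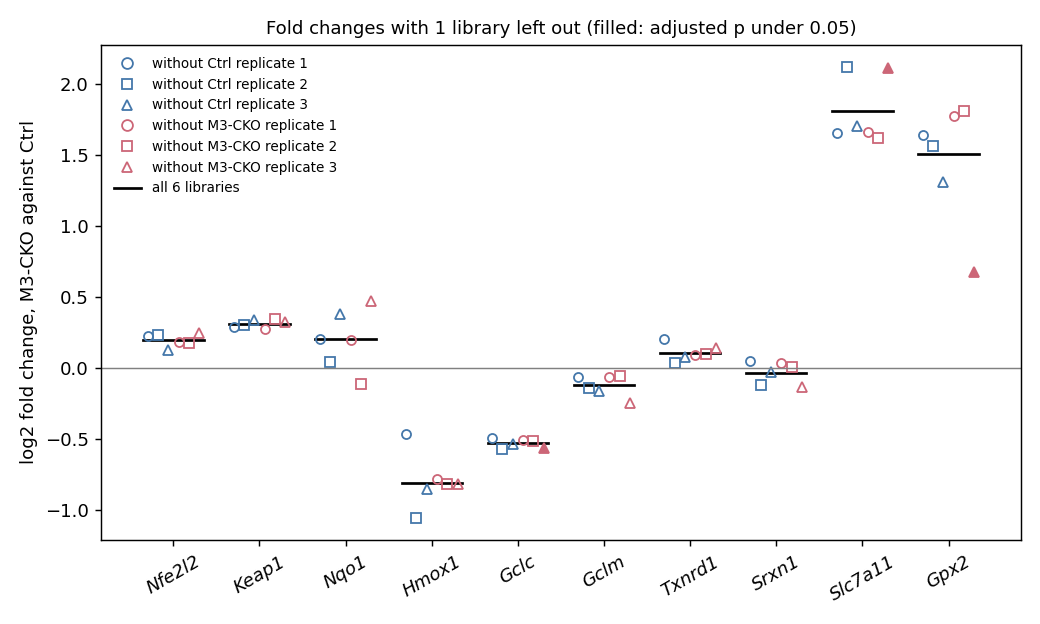
Log2 fold change of each gene (M3-CKO against Ctrl) with all 6 libraries (black line) and with each library left out in turn (symbols, filled where the edgeR adjusted p is under 0.05). The 3 filled symbols belong to Gclc, Slc7a11 and Gpx2 without M3-CKO replicate 3, and the Gpx2 value is then 0.68.

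The rest of the pathway was read from 6 lists holding 69 genes, of which 65 passed the low-count filter. Cbr3, a carbonyl reductase that detoxifies quinones, was the only 1 of the 65 called by edgeR, against 2.91% of all tested genes, and it rose from 113 ± 34.6 to 269 ± 28.5 CPM (SD, n = 3; log2 fold change 1.25, SE 0.25, edgeR adjusted p = 0.046). Its level was 136, 73.1 and 129 CPM in Ctrl and 258, 247 and 301 in M3-CKO. The call was lost when any library other than M3-CKO replicate 3 was left out (edgeR adjusted p from 0.11 to 0.17). Those fits called between 0 and 18 genes over all tested, so the loss is not particular to Cbr3. Of the 65 genes, 13 had an unadjusted p under 0.05 (20.5% of tested genes) and 18 did not overlap between the groups (27.1% of tested genes), and DESeq2 called 5 higher and 5 lower (10.4% of tested genes). The median log2 fold change of the 65 was -0.10.

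**Figure D4:**
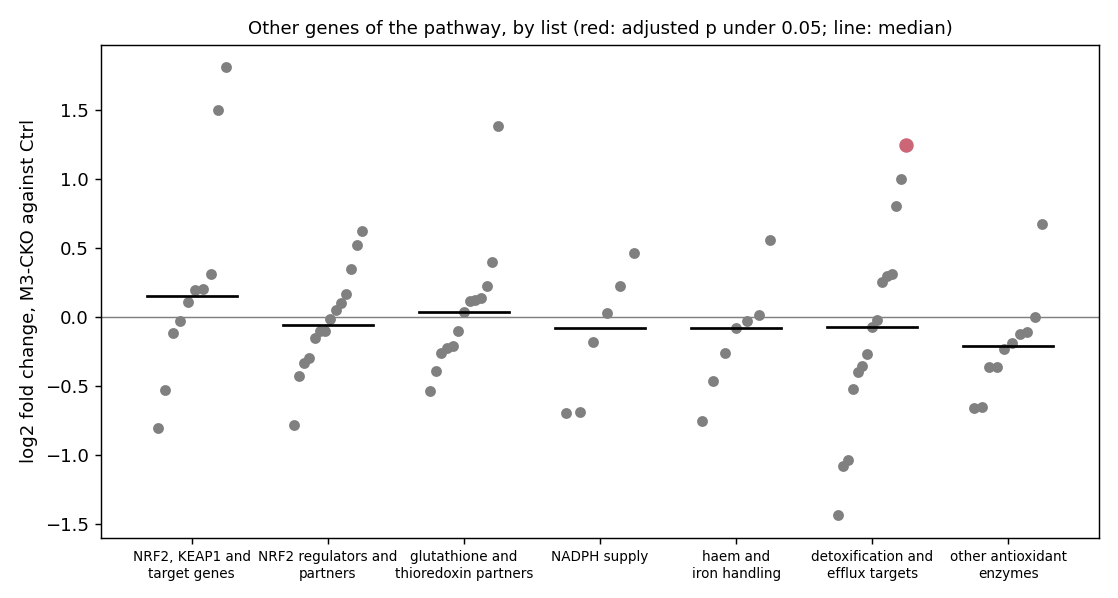
Log2 fold change in M3-CKO against Ctrl for the 10 genes and for the tested genes of the 6 pathway lists, 1 point per gene, with the median of each list as a line and genes with an edgeR adjusted p under 0.05 in red. Cbr3, in the detoxification list, is the only red point, and every list has genes on both sides of 0.

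Within detoxification and efflux, values went both ways. Besides Cbr3, DESeq2 called Cbr1, its neighbour in the carbonyl reductase family, and Akr1b8, an aldo-keto reductase, higher, and Aldh3a1, an aldehyde dehydrogenase, Pir and Osgin1 lower. These 5 genes were named after their values were seen. Without M3-CKO replicate 3 edgeR called Cbr1 and Akr1b8 higher and Aldh3a1 and Pir lower (25.0% of all genes tested in that fit). Cbr1 had 207 ± 48.1 CPM in Ctrl and 414 ± 104 in M3-CKO (SD, n = 3; edgeR adjusted p = 0.074). Aldh3a1 had 16.05, 39.2 and 28.7 CPM in Ctrl and between 9.36 and 11.1 in M3-CKO (edgeR adjusted p = 0.065). Osgin1 had 456, 171 and 209 CPM in Ctrl and 123, 119.6 and 151 in M3-CKO (edgeR adjusted p = 0.15), with Ctrl replicate 1 the highest library, as it was for Hmox1. Cbr1 and Cbr3 are similar genes, and reads shared between them could have been counted for either.

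Among the genes that supply NADPH, the electron source for thioredoxin reductase, glutathione reductase and NQO1, edgeR called 0 of 6 (2.91% of all tested genes), with 2 at an unadjusted p under 0.05 (20.5%), and DESeq2 called the same 2 lower (10.4%). These were G6pdx, the first enzyme of the pentose phosphate pathway, and Tkt, its transketolase. G6pdx had 292, 212 and 222 CPM in Ctrl and 129.6, 136 and 183 in M3-CKO, without overlap (log2 fold change -0.69, SE 0.20, edgeR adjusted p = 0.11, or 0.0070 without M3-CKO replicate 3). Tkt had 269, 221 and 203 CPM in Ctrl and 128, 132 and 170.2 in M3-CKO, also without overlap (-0.69, SE 0.18, edgeR adjusted p = 0.087, or 0.0058 without that library). In both, M3-CKO replicate 3 lay between its mates and the Ctrl libraries.

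Of the 7 genes for haem and iron handling, edgeR called 0 (2.91% of all tested genes) and DESeq2 1 (10.4%), with 3 at an unadjusted p under 0.05 (20.5%). Slc48a1, a haem transporter that brings haem to the cytosol, had 182, 139.9 and 164 CPM in Ctrl and 248, 228 and 240.1 in M3-CKO (log2 fold change 0.56, SE 0.15, edgeR adjusted p = 0.095), and was called by DESeq2 (adjusted p = 0.019) and by edgeR without M3-CKO replicate 3 (adjusted p = 0.022). Slc40a1, the iron exporter ferroportin, had a log2 fold change of -0.76 (SE 0.29, edgeR adjusted p = 0.20), with means of 11.2 CPM in Ctrl against 6.60 in M3-CKO. Across these steps, then, the haem transporter had higher and Hmox1 lower values in every M3-CKO library. The 2 ferritin chains had log2 fold changes of -0.26 (Fth1) and 0.01 (Ftl1, both named after their values were seen). Without M3-CKO replicate 3 edgeR called Fth1 lower and did not call Ftl1.

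The 14 regulators and partners of NRF2 had 0 calls by edgeR (2.91% of all tested genes), 0 at an unadjusted p under 0.05 (20.5%) and 0 by DESeq2 (10.4%). Without M3-CKO replicate 3 edgeR called 5 of them (25.0% of all genes in that fit), Nfe2l1, Mafg and Bach1 higher and Dcaf11 and Btrc lower. Gsk3b, a kinase that marks NRF2 for breakdown by a route that does not need KEAP1, had the lowest p in this list (log2 fold change -0.43, SE 0.19, edgeR adjusted p = 0.24; -0.28 without that library). Mafg, a small MAF partner, had 212, 217 and 274 CPM in Ctrl against 379, 399.6 and 232 in M3-CKO. Its M3-CKO replicate 3 lay inside the Ctrl range, so the log2 fold change was 0.52 (edgeR adjusted p = 0.27) with all libraries and 0.73 (adjusted p = 0.0082) without that one.

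Among the 13 partners in glutathione and thioredoxin metabolism, edgeR called 0 (2.91% of all tested genes), with 1 at an unadjusted p under 0.05 (20.5%). This was Ggct, a gamma-glutamylcyclotransferase, with 2.60 ± 0.600 CPM in Ctrl against 6.83 ± 2.85 in M3-CKO (SD, n = 3; edgeR adjusted p = 0.12), called by DESeq2 (adjusted p = 0.041). Txn1, the thioredoxin that TXNRD1 reduces, had a log2 fold change of 0.23 (SE 0.18, edgeR adjusted p = 0.53), or 0.07 when M3-CKO replicate 3 was left out. Of the 10 tested genes among other antioxidant enzymes 0 were called by edgeR or DESeq2 (2.91% and 10.4% of all tested genes), and 1 had an unadjusted p under 0.05 (20.5%). Prdx4, the peroxiredoxin of the endoplasmic reticulum, had 32.8, 24.5 and 21.7 CPM in Ctrl and 14.1, 16.3 and 19.4 in M3-CKO (log2 fold change -0.66, SE 0.24, edgeR adjusted p = 0.17, or 0.032 without M3-CKO replicate 3). Sod2, the mitochondrial superoxide dismutase, had one of -0.36 (SE 0.16, edgeR adjusted p = 0.27, or 0.016 without that library).

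Without M3-CKO replicate 3, edgeR called 26 of the 65 list genes, 7 higher (13.7% of all genes tested in that fit) and 19 lower (11.3%). NADPH supply had 4 of 6 lower and 0 higher in that fit, with a median log2 fold change of -0.72. With all 6 libraries that median was -0.08, with 3 genes positive and 3 negative. Of the 4, Idh1 and Me1 (named after their values were seen) then had log2 fold changes of 0.23 and 0.03. Their M3-CKO replicate 3 (527 and 929 CPM) lay above every Ctrl library (at most 250 and 573). Without that library, detoxification and efflux had 3 higher and 6 lower of 15. Other antioxidant enzymes had 3 of 10 lower and 0 higher, and glutathione and thioredoxin partners 2 of 13 lower and 0 higher. Haem and iron handling had 1 higher and 2 lower of 7, and the regulators 3 higher and 2 lower of 14. In the 2 remaining M3-CKO libraries the basal, club, hillock and squamous marker sums were below those of every Ctrl library. Scgb1a1, the basal marker Itga6, the goblet sum, mostly Gp2, and the ciliated sum were above those of every Ctrl library. The part of these marker differences in the counts was not tested.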

How the data were processed

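RNA-seq of 6 libraries (3 Ctrl, 3 M3-CKO) was used. The deposited counts are whole numbers per gene and not normalized. Trim Galore, HISAT2, featureCounts and build mm39 were used, per the submitters' processing notes. The sources used here do not give versions, annotation, strand setting or the handling of reads with several matches, so values of genes with near-identical copies (ferritins, thioredoxin, peroxiredoxins, glutathione transferases) are uncertain.

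Counts were tested with edgeR 4.0.16 in R 4.3.3: filterByExpr, TMM (factors 0.956 to 1.05) and the two-sided quasi-likelihood test of M3-CKO against Ctrl without covariate, with Benjamini-Hochberg adjustment over 13528 genes and a call at an adjusted p under 0.05. CPM values use the scaled library sizes. The SE is the log2 fold change over the square root of F. Log2 CPM for likeness and library differences used a prior count of 2. Alternatives were DESeq2 1.42.0 (test or size factors), limma-voom (limma 3.58.1), library size alone, no filter, a stricter filter (5 CPM in 3 libraries), a replicate block and leaving out each library. On simulated data with 13528 genes and the libraries of this comparison, the fit recovered 16% of 2-fold, 80% of 4-fold, 94% of 8-fold and 96% of 16-fold changes, 50 genes each. A 2-fold change was thus often missed.

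The members and lists were chosen with earlier results of these data known. Named are the 10 genes, Mettl3, the called genes of each list (otherwise the 2 with the lowest p) and the 3 genes most like the widest-ranging member. Others are marked. Sequences are from RefSeq, GRCm38.p6, matched by symbol, and no coordinates of the counted genes are given.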

Additional observations from a re-analysis of the deposited data

How the results depend on the processing

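The number of genes called over all tested was 393, and it was 1402 with the DESeq2 test, 740 with no low-count filter and 20 with the replicate number as a block. It ranged from 0 to 3483 when single libraries were left out. The 10 NRF2 pathway genes had 0 calls, against 3 with the DESeq2 test, 1 (Slc7a11) with library size alone and 1 (Slc7a11) with no filter, and 0 to 3 with a library left out. The wider lists had 1 call, against 10 with the DESeq2 test, 3 with no filter, 0 with the block and 0 to 26 with a library left out. The sign changed in 2 genes when single libraries were left out: Nqo1 ranged from -0.11 to 0.48 and Srxn1 from -0.14 to 0.051. The other 8 kept their direction in all 13 alternatives. The cause of these changes was not tested.

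Deviations from the group means correlated at -0.026, 0.015 and -0.103 between libraries of the same number, 1 to 3. Between unlike numbers they correlated at -0.076 to 0.113. With 3 libraries per group and M3-CKO replicate 3 apart from the others, these values cannot tell if the replicate numbers pair the libraries. With the replicate block the adjusted p was 0.073 for Slc7a11, 0.24 for Gclc and 0.30 for Gpx2. The block took the call of Cbr3 (adjusted p = 0.082). Slc7a11, the member with the fewest counts, had 201 to 1263 counts per library, and the other 9 had at least 528.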
